A study of Drosophila melanogaster with 12 samples.

Results

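This account covers 38 genes of the Drosophila melanogaster germ line and of early oogenesis, followed in whole animals over the 12 hours after yeast was returned to their food. Probe sets were taken where the array platform gives 1 gene symbol and that symbol is on the list, and the probe set with the highest mean intensity stood for its gene. The table holds 13966 fly probe sets, which give 10844 genes chosen in this way; 34 of the 38 genes were among them, and nos, cup, Bic-C and sqd were not analysed here. A filter on dim values (above an intensity of 57.2 on at least 3 of the arrays) left 30 of the 34. The animals grew on a standard diet until early in the third instar, then on that diet with the yeast left out until day 4 of adult life. Adults then got yeast again, and whole flies were collected for 1 Affymetrix array at each hour from 1 to 12. Every array therefore shares the same earlier lack of yeast. The labels give no strain, genotype or sex, and no number of flies per array. Arrays of flies left without yeast were not analysed here, so hour cannot be told apart from time of day, age or order of processing. Nothing says that arrays came from separate cultures, so p-values measure the spread of single arrays around a fitted curve, which may be technical.

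In the fly ovary, stem cells at the tip of each ovariole divide to give cysts of connected germ cells, of which 1 becomes the oocyte and the rest become nurse cells. Nurse cells load the oocyte with messenger RNAs and proteins that are transported, anchored and kept untranslated until needed, and these set up the axes and the germ cells of the embryo. Egg production in flies is known to depend on dietary yeast, and a lack of protein lowers the survival of early cysts and the entry of egg chambers into yolk uptake. Most of the small RNA genes named here guard the germ line genome against transposons. In RNA of whole animals, fewer cells of a type and less RNA per cell cannot be told apart.

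The arrays had median intensities between 113.7 and 120.3, with 18.7% to 20.9% of fly probe sets at or below the floor of 57.2. On 5 of the 12 arrays, those of hours 2, 3, 5, 9 and 10, transcripts of male organs were present. The 19 genes of a list for the male accessory gland, which makes seminal fluid proteins, had summed intensities of 1813 to 2578 on those arrays and 787 to 939 on the other 7. The 20 genes of a testis list summed to 3370 to 4257 on those arrays and to 2339 to 2569 on the others. On the 5 arrays 11 or 12 accessory gland genes were above the floor, and on the other 7 arrays 6 or 7 were. The arrays were told apart by the mean level of this same list, so a gap in it follows from that choice. The testis list was not used for it, and 15 to 17 of its genes were above the floor on the 5 arrays and 14 on the others. No marker of either list was listed at 0. Of the marker genes, the accessory gland gene Acp95EF read 269.5 to 552.0 on the 5 arrays and 38 to 44 on the others. Not every marker separated. The testis gene Mst98Ca, the brightest of its list, read 492.8 to 632 on the 5 arrays and 479.6 to 696.1 on the others. In a limma fit with hour, 7 of 11 tested accessory gland genes and 7 of 17 tested testis genes were called higher on the 5 arrays. As for female genes, at least 10 of 12 egg shell genes and all 3 yolk protein genes were above the floor on each of the 12 arrays. The floor alone does not show a tissue, since 14 testis genes were above it on the 7 arrays as well. The 3 yolk protein genes summed to 1920 or more on every array.

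Of the 30 tested germ line genes 9 rose and 2 fell over the hours. Among all 11586 tested probe sets 8.44% rose and 4.97% fell. Those that rose were me31B, exu, vas, alphaTub67C, smg, aub, otu, mael and vls, and those that fell were stau and tud. The largest fitted changes, the slope on hour times the 11 hours from first to last, were 1.29 ± 0.25 log2 units for me31B and 1.26 ± 0.22 for exu (SE, n = 12 arrays). The median fitted change over the 30 genes was 0.22, and over all tested probe sets 0.01. That median was 0.39 without hour 1 and 0.09 without hour 12. At hour 12, 17 of the 30 genes had their highest intensity, against 12.1% of all tested probe sets. The brightest of 19 control probe sets that match no fly transcript was also highest on that array. It read 135.2 there and 98.1 to 114.2 on the others, while the median intensity at hour 12 was 114.4. The part of this in the high values of hour 12 was not tested. None of the 30 passed for a curved course (0 by limma, where 0.0345% of probe sets passed). At an unadjusted p under 0.05 the quadratic term took in 4 of the genes, which were egl, piwi, gcl and otu, beside 5.53% of probe sets.

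**Figure D1:**
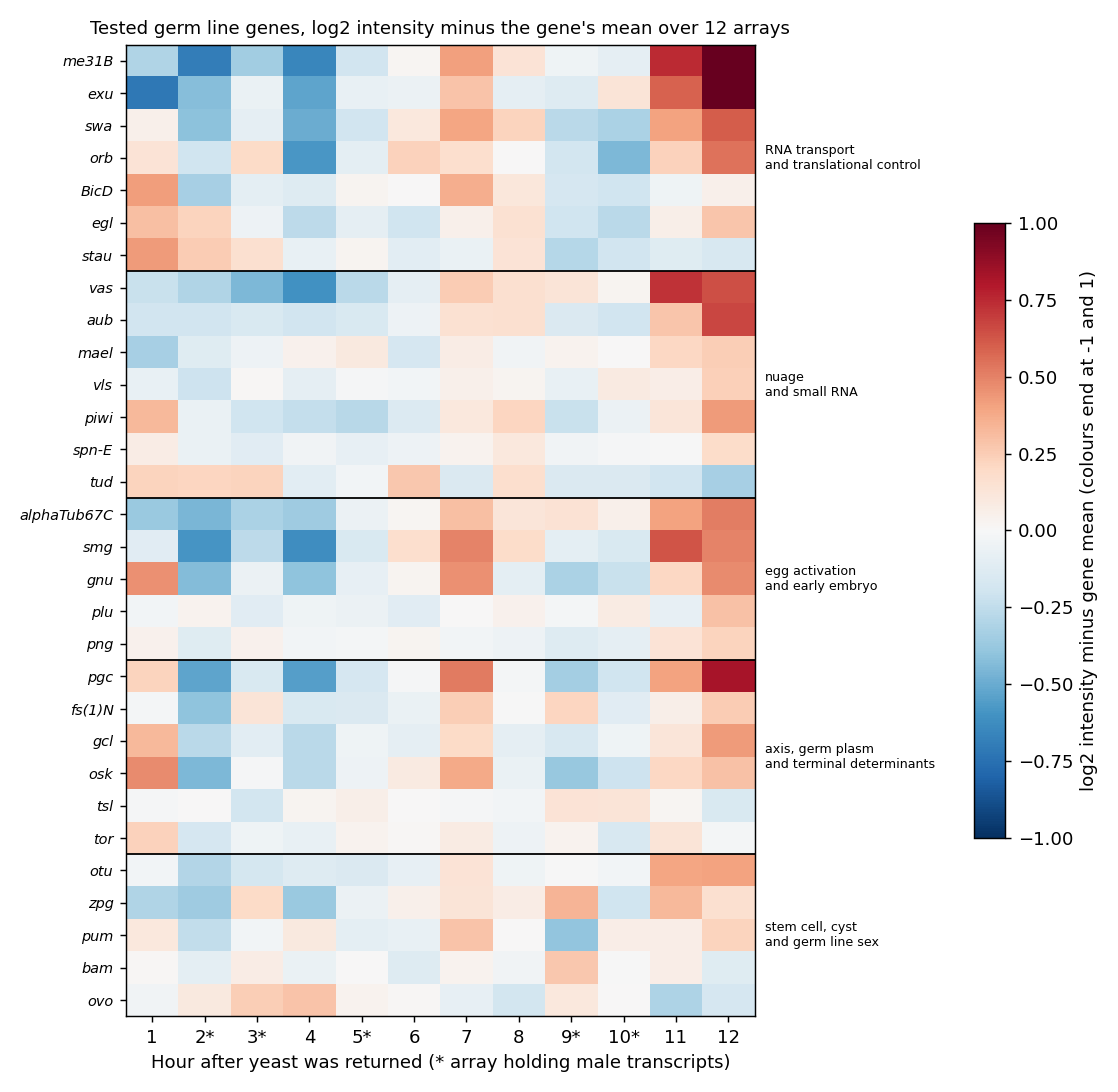
Log2 intensity of the 30 tested genes (rows, grouped by role) on the 12 arrays (columns, by hour after yeast was returned), minus each gene's mean over the arrays. The columns of hours 11 and 12 are mostly red and those of hours 2 and 4 mostly blue, and hour 1 is split between red genes such as osk, gnu and BicD and blue ones such as exu.

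The genes exu, me31B, vas and alphaTub67C held the trend in each of the 12 fits that leave out an hour, and they come from 3 different roles. The gene exu encodes an RNA-binding protein that helps to bring bicoid RNA to the front of the oocyte. Its intensities from hour 1 to hour 12 were 144.7, 176.7, 227.1, 165.7, 226.7, 229.5, 290.6, 224.5, 218.5, 261.4, 358.8 and 505.0. The lowest was hour 1 and the highest hour 12, and hours 11 and 12 exceeded every earlier array (limma adjusted p = 0.00257). The gene me31B encodes a helicase that keeps stored maternal RNAs from being translated. It read 401.4, 305.7, 389.3, 314.7, 432.1, 502.4, 657.7, 543.3, 481.8, 465.9, 830.0 and 992.0 in order of hours (limma adjusted p = 0.00386). Its low values were those of hours 2 and 4, it had a first high at hour 7, and hours 11 and 12 lay above all others. The gene vas encodes the helicase Vasa, a germ cell marker that sits in the nuage around nurse cell nuclei and in the germ plasm. Its intensities were 75.2, 71.2, 63.9, 51.8, 72.7, 81.9, 104.1, 97.6, 95.8, 89.0, 143.8 and 136.5, a fitted rise of 1.05 ± 0.19 (limma adjusted p = 0.00271). They were dim: the brightest of 19 control probe sets that match no fly transcript read between 98.1 and 135.2 depending on the array, and vas was above it on 3 of 12 arrays. With the floor raised to the 40th percentile of the table the change of vas was 0.45 (limma adjusted p = 0.0455). The gene alphaTub67C encodes the alpha-tubulin that the mother supplies to egg and early embryo. It read 160.4, 151.0, 166.2, 162.0, 199.9, 211.3, 255.7, 226.4, 229.3, 215.9, 273.5 and 295.8. All of hours 5 to 12 lay above all of hours 1 to 4, and the fitted rise was 0.90 ± 0.12 (limma adjusted p = 0.000368).

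**Figure D2:**
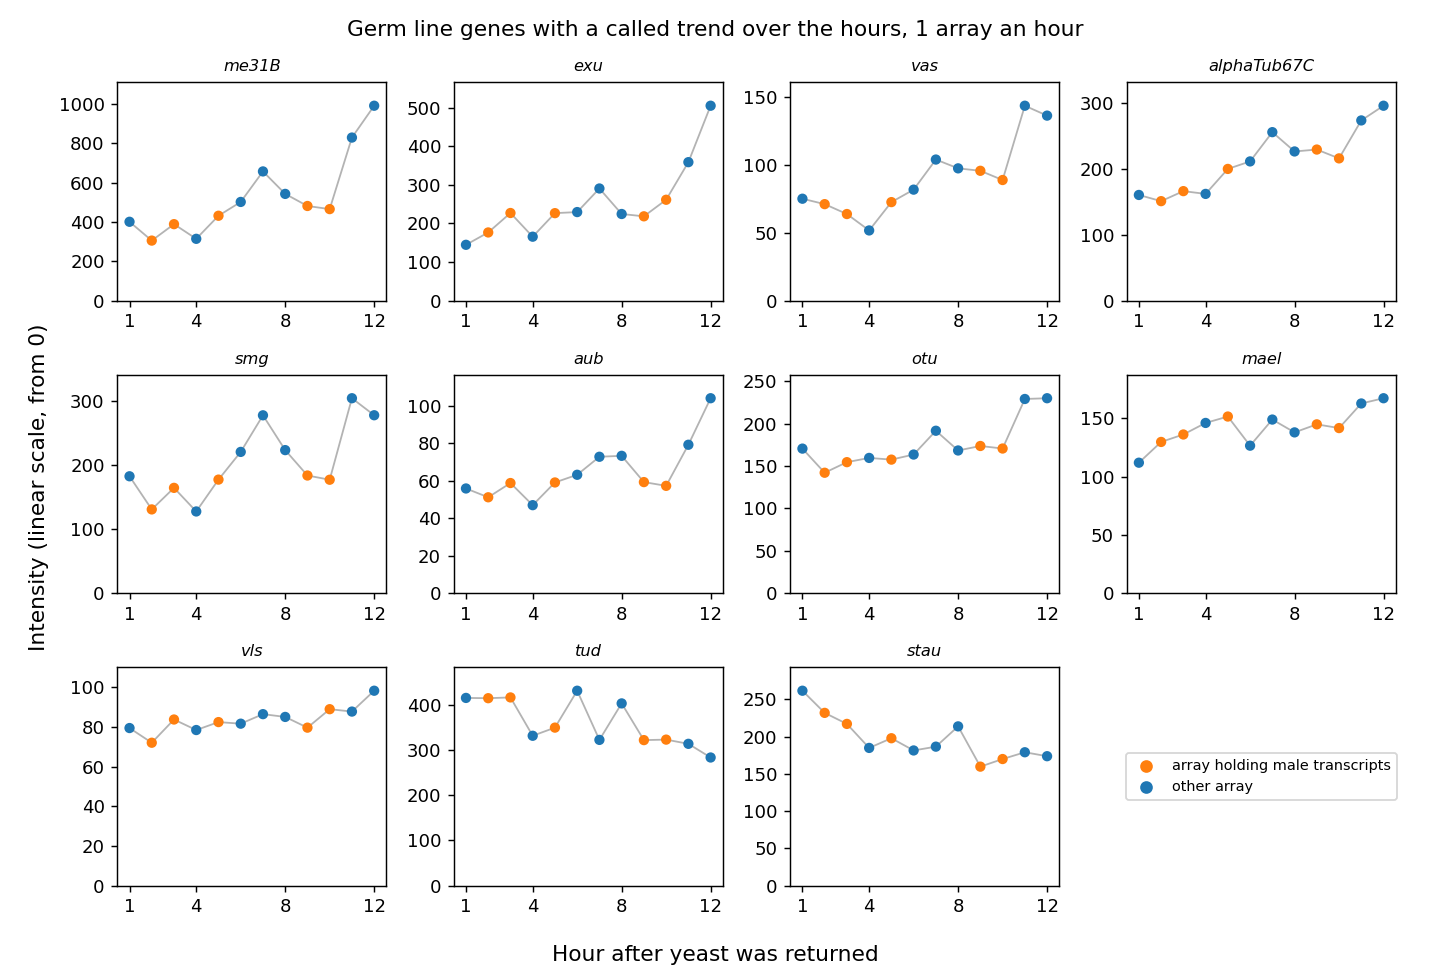
Intensity on a linear scale from 0 (vertical axis) by hour after yeast was returned (horizontal axis) for the 11 genes with a called trend, 1 point per array, with the 5 arrays holding male transcripts in orange and the other 7 in blue. The curves of me31B, smg and vas share low points at hours 2 or 4 and high points at hours 7, 11 and 12, while tud and stau end below where they began.

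Beyond me31B and exu, the genes of RNA transport and translational control were split. Of 7 tested genes of this role 2 rose, 1 fell and 4 did not pass. The exception in direction was stau, which encodes the double-stranded RNA-binding protein Staufen, a carrier of oskar and bicoid RNA. It read 261.4, 231.7 and 216.9 on the first 3 arrays, and 159.6 to 213.6 from hour 4 on. Its fitted change was -0.50 ± 0.12 (limma adjusted p = 0.0115), and without hour 1 it was -0.39 and not called (limma adjusted p = 0.0653). A second stau probe set, from 184.2 at hour 1 to 125.0 at hour 12, had a fitted change of -0.31 ± 0.12 and did not pass (limma adjusted p = 0.126). The gene swa encodes Swallow, which acts with exu on bicoid RNA. It ranged from 84.4 at hour 4 to 181.5 at hour 12, with a fitted change of 0.56 ± 0.25 that did not pass (limma adjusted p = 0.185). The gene orb, whose product activates the translation of localized RNAs such as oskar, read 364.9, 289.3, 381.1, 220.6, 310.4, 390.0, 373.1, 333.1, 291.8, 243.3, 390.5 and 482.8 by hour. Hours 4 and 10 were its lowest and hour 12 its highest, with a fitted change of 0.23 ± 0.26. For BicD and egl, which link RNAs to the dynein motor, the fitted changes were -0.07 ± 0.19 and -0.08 ± 0.18. Both had their highest intensity at hour 1, which was 130.1 for egl. In order of hours BicD read 250.9, 149.6, 175.0, 171.5, 190.7, 187.0, 239.8, 202.2, 166.4, 162.8, 182.3 and 193.8, so that hours 1 and 7 stood above the rest.

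Genes of the nuage and of small RNA silencing gave 4 rises and 1 fall among 7 tested. Besides vas these were aub, mael and vls, which rose, and tud, which fell. The gene aub encodes Aubergine, an Argonaute-family protein that cuts transposon RNA with piRNA guides. It was above the floor on 8 arrays and never above the brightest control probe set, at 46.9 at hour 4 and 103.9 at hour 12 (fitted change 0.57 ± 0.17, limma adjusted p = 0.036). The gene mael encodes Maelstrom, a nuage protein of the same pathway. It had its lowest intensity, 111.9, at hour 1 and its highest, 167.2, at hour 12 (0.37 ± 0.10, limma adjusted p = 0.0284). The gene vls encodes Valois, a partner of the arginine methylase that modifies germ plasm proteins. Its range was narrow, from 72.0 to 98.2, and it too was below the brightest control probe set throughout (0.26 ± 0.08, limma adjusted p = 0.0394). The gene tud encodes Tudor, a scaffold that binds such modified proteins in the germ plasm. It read 414.7, 414.1 and 415.8 at hours 1 to 3, with 430.6 for hour 6 and 402.6 for hour 8. The other 7 arrays lay between 283.1 and 349.1, with the lowest value at hour 12 (-0.47 ± 0.12, limma adjusted p = 0.0231). The gene piwi, for the nuclear member of the Argonaute family here, had its lowest value, 74.5, at hour 5 and its highest, 121.0, on the last array, and did not pass (0.21 ± 0.19). For spn-E, a helicase of the nuage, all 12 values lay between 202.8 and 249.8 (0.12 ± 0.08). The helicase gene armi was below the floor on all 12 arrays, at 30.6 to 55.9, and was not tested.

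Among 5 genes of egg activation and the early embryo 2 rose and 3 did not pass. After alphaTub67C the other was smg, which encodes Smaug, a repressor that binds nanos RNA and clears maternal RNAs from the early embryo. Its intensities by hour were 182.7, 130.9, 164.6, 127.7, 177.5, 220.8, 278.0, 223.6, 183.9, 177.3, 304.7 and 278.1. Hours 7, 11 and 12 were high, and hours 2 and 4 low (fitted rise 0.86 ± 0.25, limma adjusted p = 0.0337). The genes png, plu and gnu encode the 3 parts of the kinase complex that starts the embryonic divisions. Of these, gnu read 271.2, 145.8, 190.0, 149.0, 186.0, 200.8, 269.8, 184.4, 158.9, 168.9, 227.2 and 274.5, high at hours 1, 7 and 12 and low at hours 2 and 4 (0.22 ± 0.27). The values of png lay between 248.6 and 316.7 (0.10 ± 0.10) and plu between 60.9 and 80.9 (0.17 ± 0.10). All 3 had their highest value at hour 12, and plu was below the brightest control probe set on every array.

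No gene of the axis, germ plasm and terminal determinants passed, with 0 of 6 tested in either direction. The gene osk encodes Oskar, which assembles the germ plasm at the rear of the oocyte. It read 720.3, 379.3, 515.5, 430.9, 500.2, 554.3, 674.3, 496.1, 399.5, 448.4, 599.8 and 636.8. Its highest value came at hour 1 and its lowest 1 hour later, so the line through the hours had a change of only 0.09 ± 0.25 (limma adjusted p = 0.891). The gene pgc, whose product silences transcription in the embryonic germ cells, had its lowest values at hours 2 and 4, at 72.7 and 71.6. It reached 149.7 at hour 7 and 185.3 at hour 12 (0.64 ± 0.30, limma adjusted p = 0.208). The germ cell formation gene gcl was between 95.7 and 154.8 (0.22 ± 0.18). The terminal system tells the embryo where its ends are. Its receptor gene tor ranged from 135.7 to 179.1 (-0.03 ± 0.11), its eggshell component fs(1)N from 210.1 to 333.4 (0.32 ± 0.15), and tsl, expressed in follicle cells, from 122.5 to 153.1 (0.04 ± 0.09). The anterior determinant bcd was above the floor on 2 arrays, at 40.1 to 62.0, and the dorsal signal grk on none, at 20.4 to 37.7. Neither was tested.

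Among stem cell, cyst and germ line sex genes 1 of 5 passed. That gene was otu, which encodes a deubiquitinating enzyme needed for cyst divisions and nurse cell growth. It lay between 142.2 and 191.8 up to hour 10, then read 229.3 and 230.2 at hours 11 and 12 (0.50 ± 0.12, limma adjusted p = 0.0157). The gene zpg, for the gap junction protein between germ cells and their support cells, ranged from 342.7 at hour 4 to 558.5 at hour 9 and did not pass (0.48 ± 0.17, limma adjusted p = 0.084). Fitted to the 7 arrays without male transcripts alone, zpg passed at 0.62 ± 0.14 (limma adjusted p = 0.044). The differentiation factor gene bam varied little, from 128.9 to 170.5 (0.05 ± 0.10), and its partner bgcn was below the floor on every array, at 34.8 to 44.3. The translational repressor gene pum ranged from 118.1 to 189.0 (0.11 ± 0.16). The gene ovo, for a transcription factor of the female germ line, went from 75.9 at hour 1 to 95.3 at hour 4 and 63.0 at hour 11 (-0.32 ± 0.12, limma adjusted p = 0.113), below the brightest control probe set on all 12 arrays.

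Apart from exu, me31B, vas and alphaTub67C, each called trend lost its call in at least 1 of the fits that leave out an hour. Without hour 2, hour 11 or hour 12 the count that rose was 4, and the count that fell was 1. Calls over all tested probe sets, 1554 with all arrays, were then 1030, 943 and 996. Without hour 1 no gene fell (0), and 997 probe sets were called. In limma fits smg lost its call without hour 2 (adjusted p = 0.105), 3 (0.0569), 4 (0.0514), 11 (0.111) or 12 (0.109), at changes from 0.73 to 1.05 over all hours left out. For otu, at 0.50 over all arrays, the change was 0.46, 0.42 and 0.41 without hour 2, 11 or 12 (limma adjusted p = 0.0523, 0.0603 and 0.0845). For mael, at 0.37, it was 0.27, 0.38, 0.34 and 0.33 without hour 1, 2, 11 or 12 (limma adjusted p = 0.138, 0.0573, 0.0847 and 0.109). For tud, at -0.47, it was -0.48, -0.46, -0.47 and -0.41 without those hours (limma adjusted p = 0.0607, 0.0596, 0.0581 and 0.101). The calls of aub and vls were lost in 8 and 9 of the 12 fits that leave out an hour, and the change of aub was 0.34 without hour 12. Other array measures followed the hours as well. For actin, the 3' control probe set exceeded the 5' one by 1.13 log2 units at hour 1 and by 0.69 at hour 12. With this difference as covariate 3 genes rose and 1 fell, at a median change of 0.50, and 228 of all tested probe sets were called. With that covariate me31B changed by 1.65 and vas by 1.18 and neither was called (limma adjusted p = 0.0604 and 0.0919), while exu and alphaTub67C were (limma adjusted p = 0.0494 and 0.0209). The summed intensity of the 3 yolk protein genes ran from 1920 to 15537 on the 7 arrays without male transcripts, and all 3 rose. The 12 egg shell genes, which mark late follicle cells, had 0 called by limma and a median change of 0.08, and all 3 measured markers of nerve and eye fell. The part of these in the germ line trends was not tested.

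On the arrays holding male transcripts most germ line genes read lower, but by amounts that did not pass with all 12 arrays. In a limma fit with hour as covariate, the difference (5 arrays with male transcripts minus the other 7) was below 0 for 25 of 30 genes, where it was below 0 for 46.9% of all tested probe sets. Its median was -0.13 over the genes and 0.01 over all probe sets. None passed after adjustment (0 lower and 0 higher, against 0.302% and 1.09% of all probe sets). At an unadjusted p under 0.05, 11 of the 30 were lower and 0 higher, where 9.13% and 12.9% of all probe sets were. The 11 were osk, swa, BicD, pum, smg, piwi, otu, pgc, aub, me31B and gnu. Among genes above the brightest control probe set on all 12 arrays, the difference was -0.38 ± 0.13 for osk, -0.37 ± 0.15 for gnu and -0.34 ± 0.13 for smg (limma adjusted p = 0.126, 0.171 and 0.162). For pgc and swa, above it on 4 and 7 of 12 arrays, it was -0.41 ± 0.16 and -0.39 ± 0.13 (limma adjusted p = 0.167 and 0.13). Second probe sets of gnu and orb, above the floor on only 4 arrays each, had differences of 0.07 and -0.01. That of stau had -0.06, and those of swa and ovo were above the floor on 0 arrays and not tested. Of the genes with a positive difference, ovo at 0.13 ± 0.07 and bam at 0.09 ± 0.06 had the largest.

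**Figure D3:**
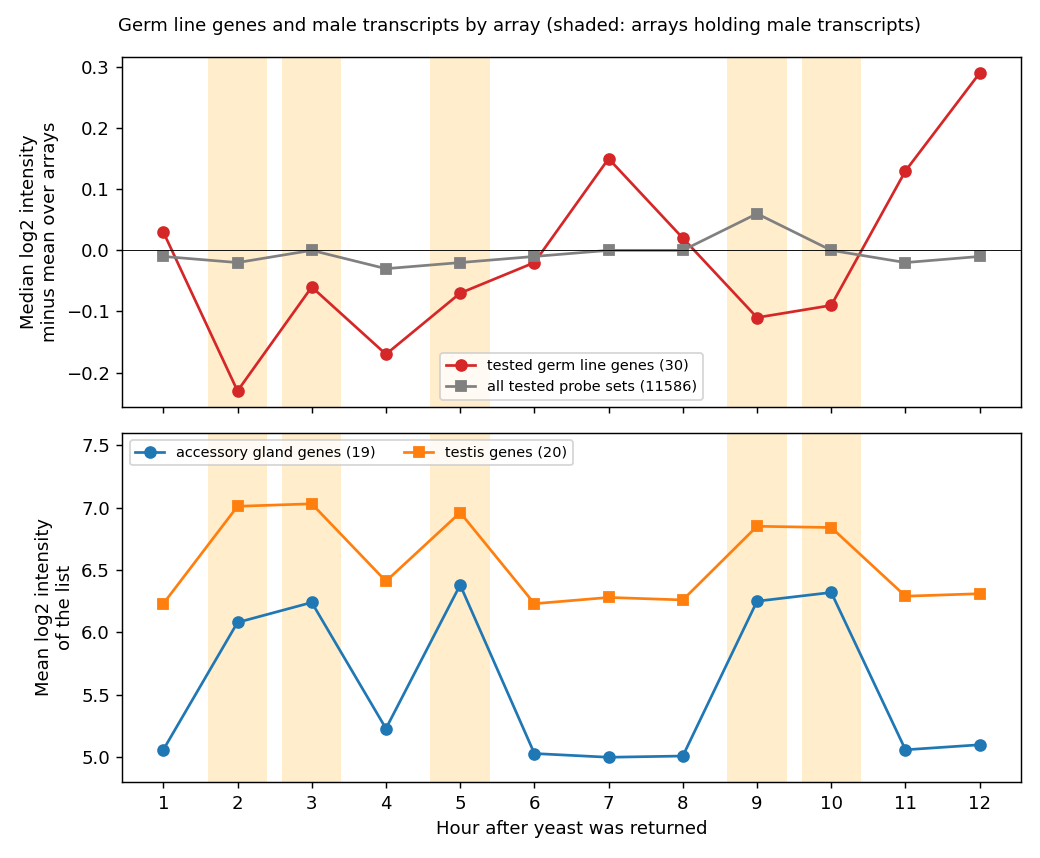
Upper panel: median log2 intensity minus the mean over arrays, by hour, for the 30 tested germ line genes and for all 11586 tested probe sets. Lower panel: mean log2 intensity of the 19 accessory gland and 20 testis genes; shading marks the 5 arrays holding male transcripts, on each of which the germ line median lies below 0, as it also does at hours 4 and 6.

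Germ line genes were also low on the array of hour 4, where the male markers were mixed. The mean log2 intensity of the accessory gland list was 5.23 there and 5.00 to 5.10 on the other 6 arrays without clear male transcripts, and 6.08 to 6.38 on the 5 arrays. For the testis list it was 6.41 at hour 4, 6.23 to 6.31 on those 6 arrays and 6.84 to 7.03 on the 5. The summed testis signal at hour 4, at 2540, was below the highest of the 7 arrays, at 2569. Of the 7 accessory gland genes called higher on the 5 arrays, 4 read higher at hour 4 than on the other 6 arrays and 3 lay within their range. Of the 7 such testis genes 1 read higher and 6 lay within it. Among all 11 tested accessory gland genes, called or not, 7 had their highest value of the 7 arrays at hour 4. The same held for 7 of the 17 tested testis genes. The markers Mst57Da and Mst84Dd read 67.2 and 124.6 at hour 4, inside the ranges of the other 6 arrays of 64.7 to 76.1 and 109.2 to 127.2. In contrast, Acp95EF read 44 at hour 4, its highest value of the 7 arrays. Among the germ line genes, 26 of 30 lay below their own line at hour 4, beside 58.5% of all probe sets. At that hour 22 of 30 read lower than at both hours 3 and 5, beside 41.7% of all probe sets. The part of male RNA in the low values of hour 4 was not tested.

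Without hour 4, 10 germ line genes were lower and 1 was higher on the arrays holding male transcripts (limma), where 7.17% and 7.03% of all tested probe sets were. The median difference over the 30 genes was then -0.18. The 10 were swa, smg, osk, me31B, pgc, gnu, BicD, piwi, vas and orb, and the 1 higher was ovo. For swa the difference was -0.50 ± 0.09 (limma adjusted p = 0.0056). Its intensities on the 5 arrays were 89.7, 112.2, 104.8, 99.3 and 95.9, and on the other 6 they were 123.9, 127.7, 156.0, 139.2, 157.6 and 181.5. At hour 4 swa read 84.4, the lowest of all 12, so with that array there was overlap. For pgc the 5 arrays read 72.7, 94.5, 93.4, 82.8 and 90.9 and the other 6 read 121.6, 103.8, 149.7, 103.2, 137.8 and 185.3 (-0.54 ± 0.13, limma adjusted p = 0.0205). At hour 4 pgc read 71.6, also the lowest of all 12. Leaving out hour 4 thus takes away the lowest value of both genes, and the gap between arrays rests on that choice. What share of all probe sets has such a gap without hour 4 was not counted. All 5 pgc values on arrays with male transcripts were below the brightest control probe set of their array, as were 4 of the 5 swa values and all 5 of vas, piwi and ovo, so the sizes of these differences are uncertain. For smg the difference was -0.47 ± 0.08 (limma adjusted p = 0.0062) and for gnu -0.48 ± 0.12 (limma adjusted p = 0.022). For osk it was -0.47 ± 0.11 (limma adjusted p = 0.0155): the 5 arrays lay between 379.3 and 515.5 and the other 6 between 496.1 and 720.3, so they overlapped at hours 3, 5 and 8. With hour 4 included, 0 of 30 genes had all 5 arrays below all 7 others, as 0.302% of all probe sets did. The choice to leave out hour 4 was 1 of the 12 fits that leave out an hour; in the other 11 no germ line gene passed in either direction.

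**Figure D4:**
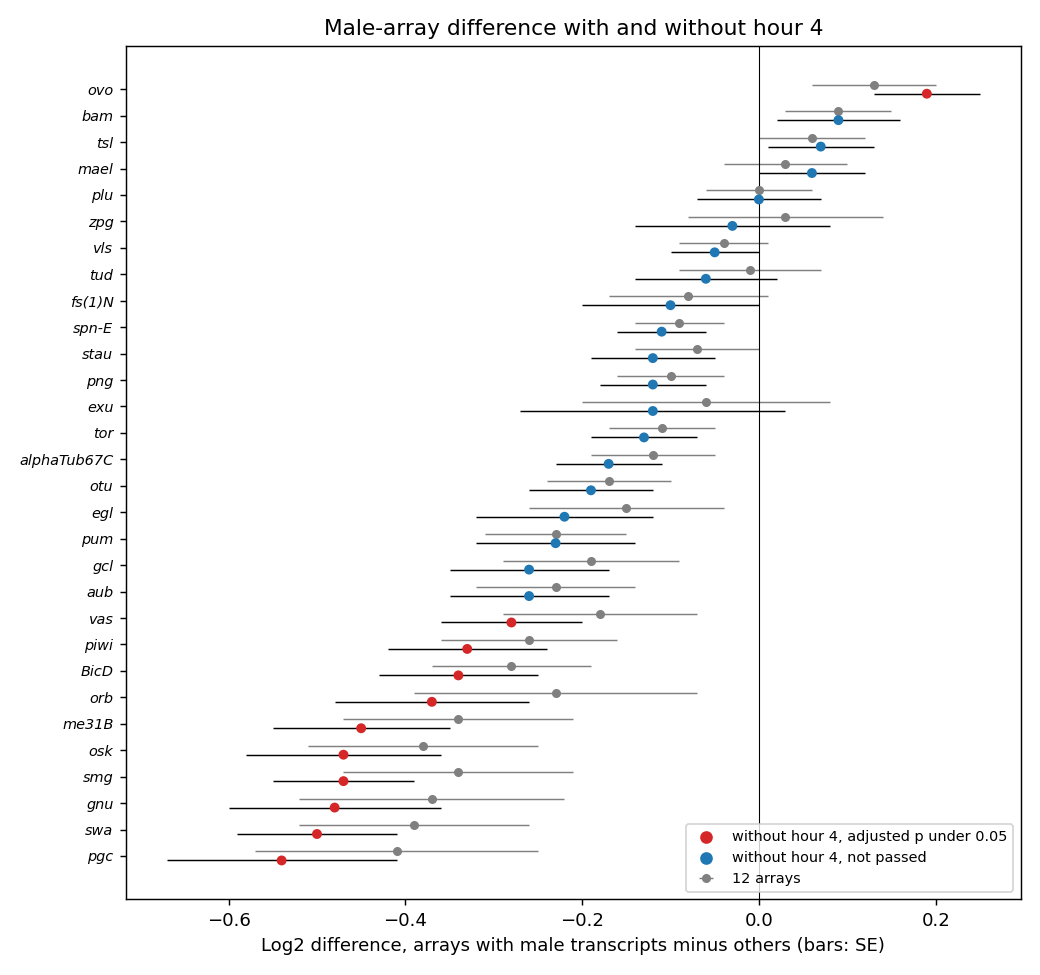
Log2 difference between arrays holding male transcripts and the others (horizontal axis, bars are SE) for each of the 30 tested genes, over 12 arrays (grey) and without hour 4 (red where the adjusted p was under 0.05, blue otherwise). The 10 red genes below 0 run from vas at -0.28 to pgc at -0.54, and ovo at 0.19 is the red gene above 0.

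Several of these genes also work in the male germ line, and most of those also read lower. Of 9 tested genes known in both sexes (vas, aub, piwi, bam, zpg, spn-E, tud, orb and pum) 7 had a difference below 0, with a median of -0.18 over all 12 arrays. Of the other 21 genes, which were not sorted as female-only, 18 did, with a median of -0.12. The difference between these groups was not tested. By role, the median was -0.23 for RNA transport and translational control, -0.15 for determinants, -0.12 for egg activation, -0.09 for nuage and small RNA and 0.03 for stem cell, cyst and germ line sex.

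The trend was also fitted with the male transcripts taken into account. With the indicator of those arrays as covariate 9 genes rose and 2 fell, where 8.56% and 5.76% of all probe sets did. On the 7 arrays without male transcripts alone, 6 rose and 0 fell (4.53% and 2.79% of all probe sets). The 6 were exu at 1.70 ± 0.22, me31B at 1.49 ± 0.28, vas at 1.18 ± 0.25, alphaTub67C at 0.94 ± 0.14, aub at 0.80 ± 0.14 and zpg (limma adjusted p = 0.0152, 0.0259, 0.0365, 0.0161, 0.0225 and 0.044). With hour 4 left out as well, a choice made after seeing the data, 6 rose and 0 fell (3.34% and 3.14% of all probe sets). The gene mael was then among the 6, at 0.59 ± 0.09 (limma adjusted p = 0.0307), and zpg was not, at 0.52 ± 0.11 (limma adjusted p = 0.0524). Of the male-array differences over 12 arrays, none of which passed, that of exu was -0.06 ± 0.14 and that of mael 0.03 ± 0.07. For me31B it was -0.34 ± 0.13 and for BicD -0.28 ± 0.09. Whether the genes differ from each other in these differences was not tested.

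**Figure D5:**
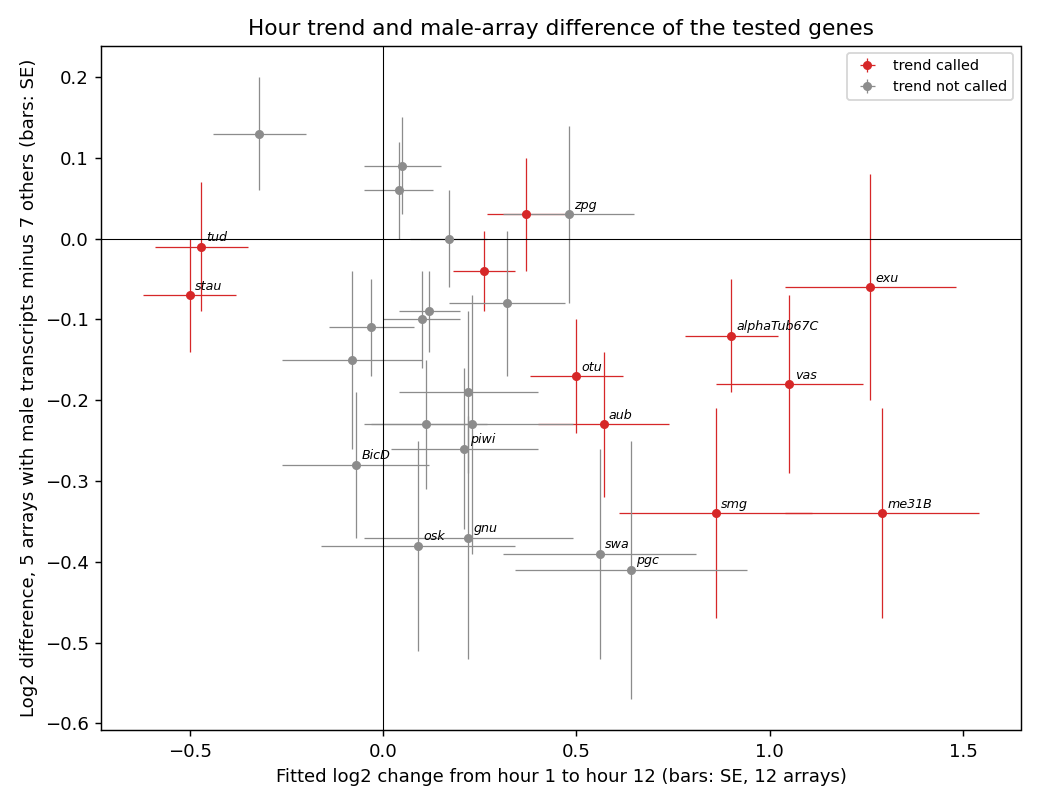
Fitted log2 change from hour 1 to hour 12 (horizontal axis) against the log2 difference between arrays holding male transcripts and the others in a fit with hour (vertical axis), for the 30 tested genes, with bars of 1 SE; red marks a called trend. Most points lie below 0 on the vertical axis, exu and me31B lie farthest to the right, and osk, gnu, swa and pgc lie low on the vertical axis, where no gene passed.

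Among 63 tested other germ line genes, from 5 lists of related function, 6 rose and 1 fell, beside 8.44% and 4.97% of all probe sets. Of 14 tested small RNA genes 2 rose, 0 fell and 12 did not pass, with a median change of 0.20. Of these, vito, which encodes a nucleolar protein and is not a known small RNA gene, read 87.7 on the first array and 122.9 on the last (0.56 ± 0.09, limma adjusted p = 0.0022). The other was shu, which encodes a chaperone partner of piRNA loading (0.59 ± 0.14, limma adjusted p = 0.0132). Next was del, which helps transcribe piRNA source loci, at 0.23 ± 0.09 (limma adjusted p = 0.114). Of 9 tested genes of meiosis and the oocyte divisions 2 rose and 7 did not pass, with a median of 0.09. The gene mtrm, a meiotic inhibitor of Polo kinase, went from 154.9 to 288.9 (0.98 ± 0.26, limma adjusted p = 0.0222), and cort, an activator of protein destruction in meiosis, from 57.3 to 88.4 (0.38 ± 0.11, limma adjusted p = 0.0351). The poly(A) polymerase gene wisp did not pass (0.61 ± 0.22, limma adjusted p = 0.0858). Of 11 genes of the maternal cell cycle and early embryo 2 rose and 9 did not pass, with gammaTub37C, the maternal gamma-tubulin, at 0.41 ± 0.09 and CycB3 at 0.34 ± 0.09 (limma adjusted p = 0.00848 and 0.0288). Next, CycE did not pass (0.35 ± 0.12). Of 11 dorsal-ventral and terminal maternal genes 0 passed in limma, with tub at 0.21 ± 0.09, ea at -0.23 ± 0.13 and Tl at 0.28 ± 0.22 nearest to doing so. Of 18 other genes of RNA localisation and ring canals 1 fell and 17 did not pass, the 1 being the filamin gene cher (-0.48 ± 0.13, limma adjusted p = 0.0278), with bel and glo at 0.42 ± 0.16 and 0.33 ± 0.15. On the arrays holding male transcripts 1 of the 63 genes was lower and 0 higher with all 12 arrays (limma), beside 0.302% and 1.09% of all probe sets. The 1 was mei-P26, a regulator of germ cell differentiation, at -0.41 ± 0.09 (limma adjusted p = 0.0478), named after its values were seen.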

How the data were processed

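Per the labels, RNA of whole animals was extracted with Trizol, hybridised by the Affymetrix protocol and normalized by the authors in dChip with an invariant selection; its version and background model are not stated there. What the authors deposited is linear-scale intensity, used here without another normalization. Arrays have no read depth, and their number limits precision. Intensities were floored at the table's 20th percentile (57.2) before log2, and the 11586 of 13966 fly probe sets above it on at least 3 arrays were tested with limma 3.58.1 in R 4.3.3. P-values were adjusted by Benjamini-Hochberg over all of them at a threshold of 0.05. The fits were the slope on hour, a quadratic term, and an indicator of arrays holding male transcripts with hour as covariate. An array held them where the mean log2 level of 19 accessory gland genes lay above the midpoint of its lowest and highest array; 20 testis genes split the arrays the same way. No pair of arrays was identical.

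Every listed gene is named. Of the other germ line lists the 3 genes with the smallest trend p are named, and of the marker lists Acp95EF; Mst57Da and Mst84Dd were chosen after their values were seen. Genes and lists were chosen with earlier results of these data known, and roles are background knowledge. Platform symbols come from GEO's annotation. Sequences were not used here. On simulated data with 200 of 11586 probe sets changed, the trend fit recovered 61.2% of changes of 0.5 log2 and 91.0% of changes of 1. The male-array fit recovered 91.0% and 98.5%. Each had 8 false calls, with a spread drawn independently between probe sets. Shifts that many probe sets of an array share were therefore not covered, and these shares need not hold for the real arrays. Alternatives were other normalizations, floors, filters and variance models, averaging a gene's probe sets, other covariates or hour scales, and each hour left out.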

Additional observations from a re-analysis of the deposited data

How the results depend on the processing

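Counts of genes that rose or fell (9 and 2) stayed within 1.5 times, at 7 to 9 and 2, under the other normalizations, floors, filters, variance model, probe set averaging and male-transcript covariates. With log2 of hour 5 rose and the median change was 0.10, from 0.22. With the actin 3' to 5' difference 3 rose and 1 fell at a median of 0.50, and 228 probe sets were called instead of 1554. Without the arrays holding male transcripts 0 fell and 848 probe sets were called. With hour 4 also left out, added after seeing the data, 0 fell and 751 probe sets were called. Over the fits that leave out 1 hour, 4 to 10 genes rose, 0 to 2 fell, the median change was 0.09 to 0.39 and 943 to 2002 probe sets were called. The male-array counts of 0 lower and 0 higher held under each alternative normalization, floor, filter, variance model, hour term and male measure, but not with hours left out, where they ran from 0 to 10 and from 0 to 1 and the median from -0.18 to -0.10. Over all probe sets that fit called 161, but 78 to 1645 with an hour left out, 88 with the floor at the 40th percentile and 244 with the accessory gland level as a continuous term. The count for curvature was 0 throughout. The cause of these shifts was not tested. Signal limits the 4 untested genes, above the floor on 0 to 2 arrays, and 12 of the 30 tested, below the brightest control probe set on at least 1 array.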
